A study of Mus musculus with 69 samples.

Results

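Interleukin-4 (IL-4) is best known for the genes it switches on in macrophages. The genes described here are those it lowered in most of the mouse strains tested. The members were chosen from measured values. In the authors' table of 5 strains, a gene was taken when its mean log2(TPM + 1) after 24 hours of IL-4 was more than 1.5-fold below its basal mean in at least 4 of the 5 strains, with a basal mean of at least 2 TPM in those strains. TPM (transcripts per 1000000) corrects for gene length and sequencing depth. The rule found 78 of the 24537 genes listed, of which 72 are protein-coding and 6 are non-coding RNAs. As this contrast chose the members, its values are given as a description with no test. The time course and the Egr2 knockout table were not used by the rule and carry all tests.

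The cells were bone marrow-derived macrophages (BMDMs), grown from female mice aged 8 to 12 weeks with macrophage colony-stimulating factor, and stimulated with 20 ng/ml IL-4. The 29 libraries of the 5 strains compared basal cells with 24 hours of IL-4, with 3 libraries a group and 2 in basal PWK. The classical laboratory strains were C57BL/6J (C57), BALB/cJ (BALB) and NOD/ShiLtJ (NOD), and the wild-derived strains were SPRET/EiJ (SPRET) and PWK/PhJ (PWK). The 16 libraries of the time course covered C57 and SPRET cells that were untreated or given IL-4 for 1, 6 or 24 hours, with 2 libraries a group. The 16 libraries of the Egr2 table covered the same times, also with 2 libraries a group, in Egr2WT (Egr2 fl/fl) and Egr2MKO (LyzM-Cre Egr2 fl/fl) cells. Both genotypes carry the floxed Egr2 alleles, and the Cre that deletes Egr2 is driven by the lysozyme M promoter, which is active in myeloid cells.

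IL-4 acts through its receptor, JAK kinases and the transcription factor STAT6. It directs macrophages towards alternative activation, a state tied to tissue repair, allergy and responses to parasites. Inflammatory activation, driven by microbial products through Toll-like receptors and NF-kB, makes macrophages release cytokines, acute-phase proteins and lipid mediators, and the 2 states oppose each other at many genes. EGR2 is a zinc-finger factor that IL-4 induces and that supports the late part of the IL-4 response.

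Depth ranged from 4.69 M to 32.9 M tags a library (M, 1000000). All 8 macrophage markers were detected, and in the time course and the Egr2 experiment their summed level was lower after 24 hours too, for example 32108 to 32585 TPM in basal C57 of the time course against 21623 to 22478 TPM, and 21056 to 21118 TPM in basal Egr2MKO against 12832 to 13379 TPM. In the 5 strains the sums of NOD overlapped (19020 to 20008 against 18342 to 19534 TPM). Of these markers Cd14, a co-receptor for lipopolysaccharide, had the most negative change at 24 hours of the time course, -2.13 in C57 and -2.66 in SPRET. The others changed in C57 and SPRET by -0.54 and -1.10 (Csf1r), -0.48 and -0.91 (Adgre1), -0.63 and -0.38 (Lyz2), and -2.11 and -0.14 (Fcgr1). Not all were lower, with 0.03 and 0.08 for Cd68, 0.23 and -1.11 for Itgam, and -0.97 and 0.12 for Mertk. In bulk RNA, fewer cells of a type and less RNA per cell cannot be told apart. Sums of neutrophil markers, carried by few genes, moved with the members in part of the groups. The summed level of 12 neutrophil markers was 333 to 378 TPM in basal C57 cells of the time course and 184 to 189 TPM after 24 hours, against 68.9 to 78.0 and 72.8 to 93.3 TPM in SPRET. That sum was 198 to 212 and 120 to 124 TPM in Egr2WT, and 168 to 173 and 53.6 to 56.6 TPM in Egr2MKO. In the contrast that chose the members it was lower after IL-4 in C57 (174 to 198 against 65.3 to 80.9 TPM), BALB (91.7 to 94.1 against 41.8 to 45.4 TPM), NOD (46.1 to 58.4 against 22.4 to 24.7 TPM) and SPRET (345 to 405 against 249 to 274 TPM), and level in PWK (566 to 571 against 563 to 615 TPM). There the defining marker Retnlg was at 0 in every group and Ly6g in most. Only 3 of the 12 markers reached 1 TPM in basal SPRET of the 5 strains, where S100a8 alone was at 334 to 394 TPM. In basal C57 of the time course 3 did, and S100a8 was at 66.2 to 92.9 TPM. The monocyte list, taken without its member F13a1, summed to 78.6 to 84.3 TPM in basal Egr2WT and to 18.8 to 20.5 TPM after 24 hours, and to 69.2 to 71.4 and 25.5 to 27.7 TPM in Egr2MKO. It was also lower in C57 (8.11 to 8.36 against 5.72 to 6.80 TPM) and SPRET (8.81 to 9.76 against 3.02 to 3.17 TPM) of the time course. In the 5 strains it was lower in C57 (64.3 to 73.5 against 37.8 to 40.1 TPM) and BALB (12.5 to 16.1 against 5.85 to 6.78 TPM). It overlapped in NOD (91.6 to 106 against 94.9 to 115 TPM) and PWK (48.7 to 59.0 against 53.6 to 63.6 TPM), and was higher in SPRET (2.09 to 2.50 against 3.96 to 4.92 TPM). Sums of the dendritic cell, mast cell, eosinophil, lymphocyte and erythroid lists stayed at or under 22.2 TPM, and that of the fibroblast list reached 213 TPM in basal PWK. The part of these cells in the results was not tested.

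Among the 78 genes, 27 met the rule's size and basal minimum in all 5 strains and 51 in 4. The strain that did not meet both was NOD for 25 genes, SPRET for 12, PWK for 10, C57 for 2 and BALB for 2. The 12 of SPRET include 2500002B13Rik, which was past the size (-0.63) but under the basal minimum. In 67 genes the mean was below basal in all 5 strains, and in 11 at least 1 strain lay above. Past 1.5-fold were 76 members in C57 and 76 in BALB, beside 5.65% and 4.11% of the 11907 genes with at least 1 TPM in 2 libraries. The wild-derived SPRET and PWK had 67 and 68 (4.43% and 2.23%), and NOD had 53 (1.83%). Nothing can be read from these counts, since the rule fixed them. On the log2(TPM + 1) scale the members' median change was -1.22 (C57), -1.11 (SPRET), -1.03 (BALB), -0.84 (PWK) and -0.72 (NOD), where the median of all these genes was -0.04, 0.11, -0.11, 0.08 and 0.12. After scaling each library to the median ratio over genes, the members' medians were -1.18, -1.22, -0.92, -0.95 and -0.89 in that order. The counts past 1.5-fold were then 74, 68, 63, 68 and 62, so that BALB and NOD were nearly equal.

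All IL-4 libraries lay below all basal libraries for 75 members in C57 (23.0% of all genes), 76 in BALB (33.8%), 72 in SPRET (18.2%), 72 in PWK (15.0%) and 67 in NOD (8.40%). Members were abundant before IL-4. Their median basal level was 35.5 TPM (C57), 26.7 TPM (NOD), 24.5 TPM (PWK), 22.3 TPM (SPRET) and 21.9 TPM (BALB), against 6.13 to 8.38 TPM over all tested genes, and the rule's own minimum favours expressed genes. The basal level also differed between strains, by more than 10 times for 25 members. It was highest in SPRET for 30 members, in C57 for 16, in PWK for 14, in NOD for 13 and in BALB for 5. At the size threshold, the fourth lowest change rounded to -0.59 for Plpp3, Fxyd2 and Tmsb4x just inside, and was -0.577 for Sqstm1, -0.574 for Sephs2 and -0.571 for Nlrp3 just outside.

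**Figure D1:**
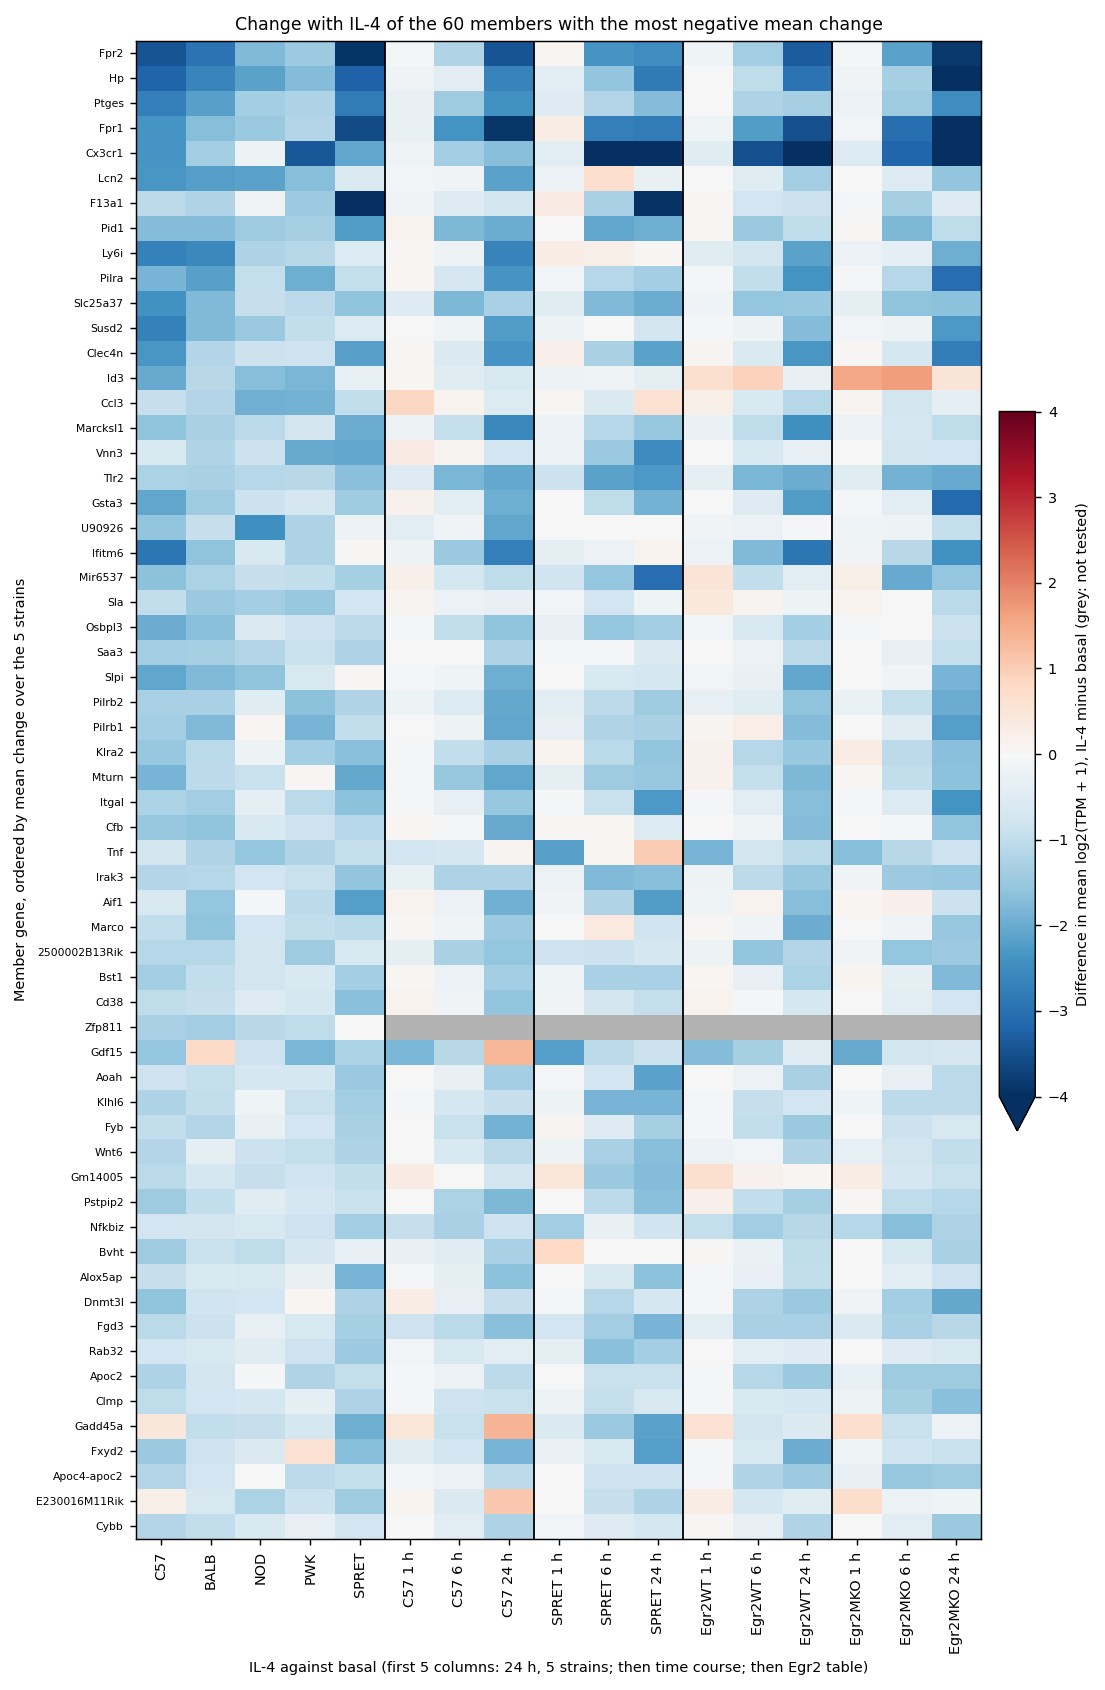
Change with IL-4 of the 60 members with the most negative mean change over strains, on the log2(TPM + 1) scale, 1 line per gene. Columns are the 5 strains at 24 hours (the contrast that chose the genes), followed by the time course and then by the Egr2 table. Blue is lower than basal, the colour ends at -4 and 4, and grey marks Zfp811, which was not tested outside the 5 strains. The 24-hour columns are blue for most genes, the 1-hour columns are pale, and the 6-hour columns lie between.

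Receptors for chemoattractants, which guide leukocytes to sites of infection, held the member with the most negative mean change over strains. Fpr2 and Fpr1 encode formyl peptide receptors, which sense bacterial and mitochondrial peptides. The genes lie 3885 bases apart on chromosome 17 (Fpr1 at chr17:17876471-17883939, Fpr2 at chr17:17887824-17893952, mm10). Fpr2 was at 105, 103 and 112 TPM in basal C57 libraries and at 7.84, 8.26 and 10.6 TPM after IL-4. In NOD it went from 67.5, 65.6 and 64.3 TPM to 18.8, 17 and 19.5 TPM, and in SPRET from 42.8, 44.5 and 45.3 TPM to 1.75, 2.43 and 1.90 TPM. No IL-4 library reached a basal one in any of these strains. PWK kept the highest level, with 39.8, 34.5 and 36.7 TPM after IL-4. Fpr1 was lower after IL-4 as well, going from 50.1, 54.4 and 53.9 TPM to 3.21, 3.76 and 3.64 TPM in SPRET and from 5.46, 7.43 and 7.98 TPM to 2.21, 1.97 and 1.34 TPM in NOD.

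Cx3cr1, the receptor of fractalkine, had a change that ranged over 3.19 log2 units among strains. It went from 16.2 and 14.3 TPM to 0.554, 0.535 and 0.522 TPM in PWK, and from 4.88, 5.03 and 5.04 TPM to 0.304, 0.142 and 0.0900 TPM in C57. In NOD it was at 0.339, 0.428 and 0.688 TPM before IL-4, and its IL-4 libraries at 0.434, 0.304 and 0.118 TPM overlapped the basal ones. Gpr84, a receptor for medium-chain fatty acids, passed the size in 4 strains, and in PWK its change was -0.08.

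Acute-phase proteins, which are secreted in inflammation and in the liver, included the most abundant member. Hp encodes haptoglobin, which binds free haemoglobin. It was at 425, 419 and 427 TPM in basal BALB and at 70.9, 60.4 and 69.4 TPM after IL-4, and in SPRET it went from 102, 91.4 and 106 TPM to 9.17, 9.90 and 10.0 TPM. Serum amyloid A3 (Saa3) was the most abundant member, with 72741, 66829 and 72702 TPM in basal SPRET and at 28684, 29915 and 30636 TPM after IL-4. It was at 25838, 24917 and 27466 TPM in basal C57 and at 9183, 10251 and 10365 TPM after IL-4. The basal levels of PWK and SPRET were thus above those of the other 3 strains, while the change was of similar size, between -0.89 and -1.39.

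The siderophore binder Lcn2 showed strain levels that differed far more than its change. PWK went from 844 and 832 TPM to 262, 261 and 256 TPM, and C57 from 86.6, 80.3 and 84.2 TPM to 16.4, 16.0 and 15.6 TPM. SPRET had only 1.39, 2.26 and 1.55 TPM before IL-4. Slpi, an inhibitor of leukocyte elastase, split the strains. It went from 824, 770 and 849 TPM to 183, 179 and 210 TPM in C57, and from 1201 and 1216 TPM to 824, 746 and 759 TPM in PWK. SPRET stayed level, with 793, 778 and 822 TPM before and 806, 826 and 825 TPM after IL-4.

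**Figure D2:**
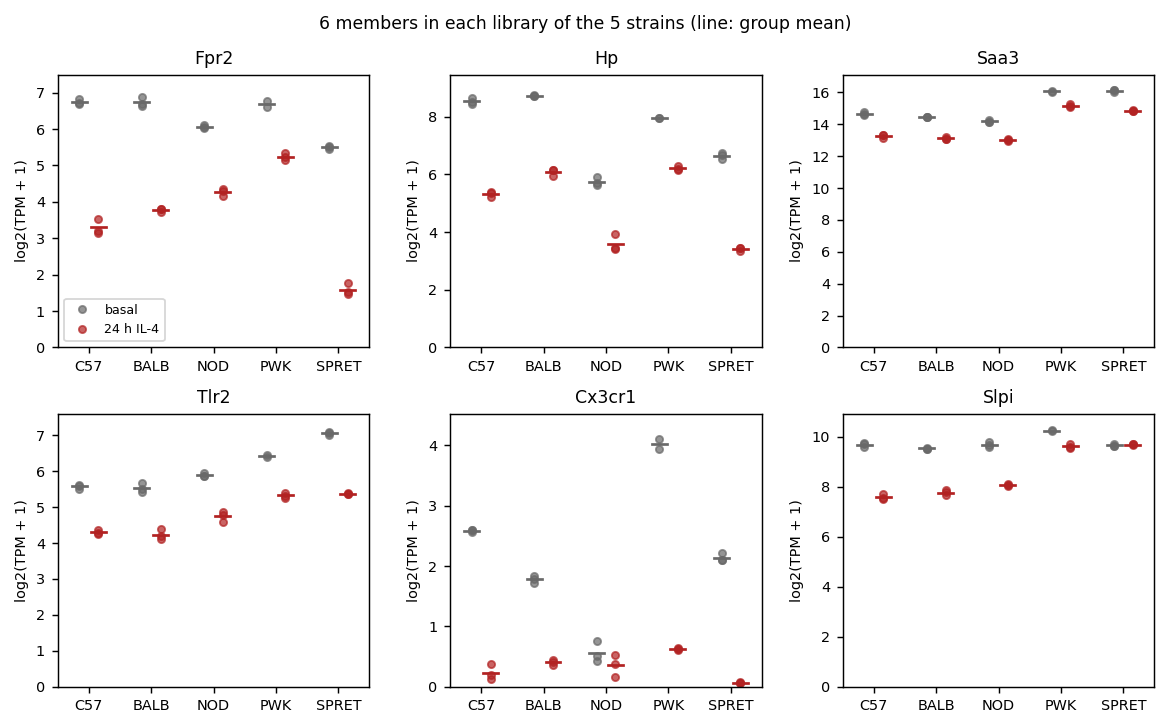
Level of 6 members in every library of the 5 strains, as log2(TPM + 1), with basal (grey) and 24-hour IL-4 (red) libraries side by side for each strain and a line at each group mean. Fpr2, Hp, Saa3 and Tlr2 are lower after IL-4 in all 5 strains without overlap, whereas Cx3cr1 overlaps in NOD and Slpi is level in SPRET.

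Sensors of microbes and uptake receptors were next. Tlr2, the receptor for bacterial lipoproteins, went from 47.4, 47.9 and 44.8 TPM to 19.7, 18.0 and 18.6 TPM in C57 and from 135, 134 and 127 TPM to 41.3, 40.1 and 40.0 TPM in SPRET. Its change had a narrow range over strains, from -1.10 to -1.68. Irak3, a brake on Toll-like receptor signalling, changed by -0.78 in NOD and by -1.57 in SPRET. Clec4n, which encodes the fungal sensor dectin-2, went from 284, 270 and 294 TPM to 52.0, 59.2 and 54.7 TPM in C57. The scavenger receptor Marco was at 342, 315 and 376 TPM in basal C57 but at 8.81, 7.13 and 7.45 TPM in basal SPRET, and was lower after IL-4 in both. Pilra, an inhibitory receptor of the paired immunoglobulin-like type, went from 13.2, 12.1 and 10.6 TPM to 1.72, 1.88 and 2.01 TPM in BALB. Its neighbours Pilrb1 and Pilrb2, the activating partners, passed the size in every strain but NOD, where they changed by 0.08 and -0.47.

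Among secreted signals, the cytokine Tnf was at 85.6, 81.6 and 91.5 TPM in basal NOD and at 29.5, 27.8 and 28.3 TPM after IL-4. The other strains had at most 28.6 TPM of Tnf. The chemokine Ccl3 was also highest in NOD, with 586, 535 and 591 TPM before and 159, 144 and 147 TPM after IL-4. Gdf15, a stress-induced hormone of the TGF-beta family, was lower in 4 strains but changed by 0.75 in BALB, from 3.51, 6.06 and 8.91 TPM to 6.81, 12.9 and 12.9 TPM with overlap. In NOD it was at 1255, 1029 and 847 TPM before IL-4.

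Some members encode proteins that act on lipid mediators. Ptges, the synthase that makes prostaglandin E2, went from 58.9, 57.3 and 57.9 TPM to 8.0, 7.81 and 7.91 TPM in C57 and from 496, 510 and 534 TPM to 204, 197 and 193 TPM in NOD. Alox5ap, which presents arachidonate to 5-lipoxygenase for leukotriene synthesis, changed by -1.85 in SPRET and -0.29 in PWK. Pla2g7, which hydrolyses platelet-activating factor, and Lpcat2, which makes it, had mean changes of -0.77 and -0.76. Aoah, the enzyme that inactivates bacterial lipopolysaccharide, changed by -0.67 to -1.49.

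Of the 12 members with the most negative mean change among those that passed in all 5 strains, the others were Pid1, Slc25a37, Marcksl1 and Vnn3. Pid1, a regulator of insulin signalling, had a mean change of -1.69, Slc25a37, the mitochondrial iron importer mitoferrin-1, of -1.55, the actin regulator Marcksl1 of -1.35, and Vnn3, a vanin of the pantetheinase family, of -1.35. The widest range of change among strains belonged to F13a1, the A subunit of coagulation factor XIII, with 4.74 log2 units. It went from 119, 124 and 126 TPM to 3.04, 3.14 and 3.38 TPM in SPRET, but from 97.7 and 102 TPM to 39.6, 33.9 and 34.5 TPM in PWK. In NOD it was under 1 TPM throughout. Ifitm6, an interferon-induced membrane protein, was at 58.4, 77.3 and 74.1 TPM in basal C57 and at 0.129, 0 and 0 TPM in basal SPRET. Basal means under 2 TPM were found for 6 members in NOD, 9 in SPRET and 1 in PWK.

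The other members that passed in all 5 strains were Gsta3, Mir6537, Sla, Osbpl3, Cfb, Bst1, Gm14005, Nfkbiz, Prdx5 and Tmsb4x. Cfb encodes complement factor B, Bst1 a surface enzyme that acts on NAD, and Nfkbiz the NF-kB cofactor I-kappa-B-zeta. The members that passed in 4 strains and are not named above included Ly6i, Susd2, Id3, U90926, Klra2, Mturn, Itgal, Aif1, 2500002B13Rik, Cd38, Zfp811, Klhl6, Fyb, Wnt6, Pstpip2, Bvht, Dnmt3l, Fgd3, Rab32, Apoc2, Clmp, Gadd45a, Apoc4-apoc2, E230016M11Rik, Cybb, Sema4a, Syt8, Prkar2b, Dbndd2, Il17ra, Msrb1, Prkcb, Osgin1, Cd82, Gngt2 and Enc1. They include Cybb, the catalytic subunit of the phagocyte NADPH oxidase, Cd38, an enzyme that consumes NAD, the integrin subunit Itgal and the cell cycle inhibitor Gadd45a. Bst1 and Cd38 are neighbours, as are Aif1 and Tnf. Some genes may share reads. Apoc2 and Apoc4-apoc2 overlap on the same strand, Gadd45a and E230016M11Rik overlap on opposite strands, Mir6537 lies inside Pou2f2 on the same strand, and Pilrb1, Pilrb2, Ly6i, Ifitm6, Klra2 and Gsta3 belong to families of similar genes. Their separate levels are uncertain, as the sources used here give neither the strand setting of the counting nor how reads with several places were shared out.

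A promoter sequence was held for 55 of the 78 members in RefSeq (GRCm38.p6), and the 250 bases before the start were searched on both strands. The C/EBP motif TTGCNNAA was in 13 promoters (23.6%), against 7.62% of the 9043 promoters of genes tested in the 5 strains and 9.03% of 17593 promoters in all. The IRF motif (GAAA, any 2 bases, GAAA) was in 6 (10.9%, against 2.91% and 3.05%), the ETS motif GGAAGT in 16 (29.1%, against 25.3% and 21.2%), and the STAT6 motif (TTC, any 4 bases, GAA) in 4 (7.27%, against 4.60% and 5.45%). The AP-1 motif TGANTCA was in 3 (5.45%, against 4.74% and 6.40%), and the NF-kB motif GGGANTTCC in 1, that of Tlr2 (1.82%, against 2.08% and 1.60%). The C/EBP promoters were those of Aoah, Fgd3, Gadd45a, Gsta3, Klra2, Lcn2, Pilra, Pilrb1, Pilrb2, Saa3, Slpi, Syt8 and Vnn3. These shares are a description, not a test, and a match is not a binding site. Pilrb1 and Pilrb2 are copies of each other, as 246 of their 250 bases are identical (98.4%), and count as 2 promoters. Pilra holds the same stretch shifted by 54 bases, with 195 of 196 bases identical to Pilrb2, so that 1 copied sequence supplies 3 of the 13 C/EBP and 3 of the 6 IRF promoters.

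The upstream sequences of 3 abundant acute-phase members with the C/EBP letters, and of the near-identical Pilrb pair, are printed 5′ to 3′ along the gene's strand. All 5 genes are on the minus strand, and the last base is next to the annotated start. Capitals mark letters that match a motif on either strand. In Saa3 (chr7:46715677-46715926) they are an IRF and then a C/EBP match, in Lcn2 (chr2:32387740-32387989) a C/EBP and a STAT6 match, and in Slpi (chr2:164356508-164356757) a C/EBP and an ETS match. In Pilrb1 (chr5:137858050-137858299) and Pilrb2 (chr5:137871759-137872008) they are an IRF, a C/EBP and an ETS match.
Saa3: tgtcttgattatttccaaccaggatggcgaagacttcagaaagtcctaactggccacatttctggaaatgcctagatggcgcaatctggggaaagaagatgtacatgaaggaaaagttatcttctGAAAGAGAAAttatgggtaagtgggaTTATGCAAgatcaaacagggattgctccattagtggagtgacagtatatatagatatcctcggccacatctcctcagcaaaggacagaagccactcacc
Lcn2: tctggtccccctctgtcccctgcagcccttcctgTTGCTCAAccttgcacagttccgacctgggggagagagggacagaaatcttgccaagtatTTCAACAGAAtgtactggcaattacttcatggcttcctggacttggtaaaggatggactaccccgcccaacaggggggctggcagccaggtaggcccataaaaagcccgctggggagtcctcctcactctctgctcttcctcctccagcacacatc
Slpi: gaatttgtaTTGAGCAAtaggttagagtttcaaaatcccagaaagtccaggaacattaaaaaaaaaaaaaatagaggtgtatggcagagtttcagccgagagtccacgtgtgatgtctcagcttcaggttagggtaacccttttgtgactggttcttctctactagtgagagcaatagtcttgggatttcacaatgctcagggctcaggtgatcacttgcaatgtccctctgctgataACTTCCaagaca
Pilrb1: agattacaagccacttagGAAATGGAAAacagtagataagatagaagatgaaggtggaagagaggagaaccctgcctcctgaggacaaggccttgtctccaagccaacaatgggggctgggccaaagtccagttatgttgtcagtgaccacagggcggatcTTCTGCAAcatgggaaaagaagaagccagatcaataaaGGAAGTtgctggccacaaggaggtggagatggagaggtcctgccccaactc
Pilrb2: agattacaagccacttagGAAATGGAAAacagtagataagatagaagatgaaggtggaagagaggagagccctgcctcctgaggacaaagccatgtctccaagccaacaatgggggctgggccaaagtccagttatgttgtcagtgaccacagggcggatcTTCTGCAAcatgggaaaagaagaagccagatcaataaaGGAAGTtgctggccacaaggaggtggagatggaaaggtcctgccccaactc

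The time course asked when the levels dropped, in libraries that played no part in the choice. Zfp811, a zinc-finger gene, did not pass the filter of at least 1 TPM in 2 libraries in either other table, so 77 of the 78 members were tested. A member was called lower when it was more than 1.5-fold below basal at an adjusted p under 0.05 (limma on log2(TPM + 1), Benjamini-Hochberg over all genes tested). These p-values measure the spread between the libraries. The methods call these biological replicates and do not say whether each came from a separate mouse. At 24 hours, 64 of 77 members were called lower in C57 and 62 in SPRET, where 8.78% and 8.80% of all genes were. At 6 hours the counts were 35 in C57 and 55 in SPRET (2.68% and 5.55% of all genes), and at 1 hour 4 and 10 (0.587% and 1.57%). The median change of the members was -0.06, -0.51 and -1.37 at 1, 6 and 24 hours in C57 and -0.14, -0.92 and -1.31 in SPRET, with medians over all genes between -0.05 and 0.02. At 24 hours, 55 members were called lower in both strains, and 6 in neither (Ccl3, Id3, Plpp3, Prkcb, Sla and Tnf). For calls shared between groups, here and below, the share over all genes was not counted. Both 24-hour libraries lay below both basal ones for 73 members in C57 and 69 in SPRET, as for 36.3% and 39.0% of all genes. Members called higher were 1, 0 and 3 at 1, 6 and 24 hours in C57 (1.48%, 4.05% and 7.06% of genes) and 1, 0 and 2 in SPRET (2.90%, 6.39% and 6.21%).

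**Figure D3:**
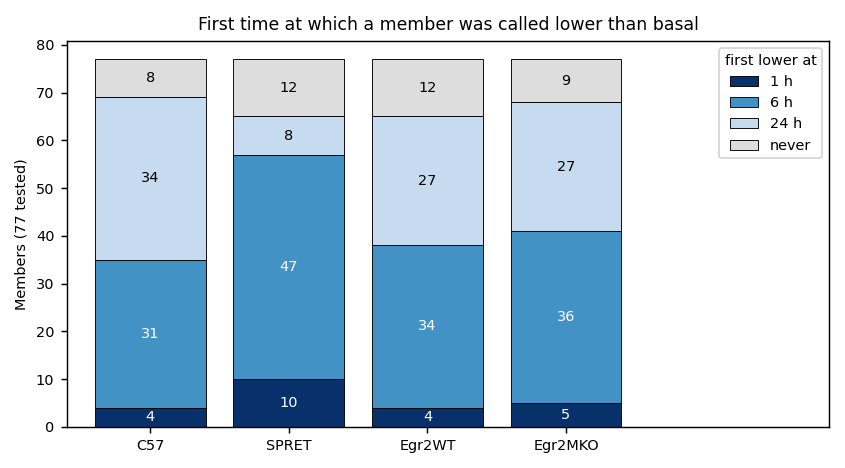
Number of members by the first time at which they were called lower than basal (1, 6 or 24 hours, or at no time), out of the 77 tested, in C57, SPRET, Egr2WT and Egr2MKO. In SPRET 47 members were first lower at 6 hours and 8 at 24 hours, whereas in C57 the counts were 31 and 34. First calls were not counted over all genes, of which 5.55% in SPRET and 2.68% in C57 were called lower at 6 hours.

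The early members were few. Called lower at 1 hour in both strains were Tnf, Gdf15, Nfkbiz and Fgd3, an exchange factor for Cdc42. Gdf15 was at 20.4 and 29.3 TPM in basal C57 and at 6.49 and 5.93 TPM after 1 hour (log2 change -1.82, SE 0.22, adjusted p 2.0e-04, limma). Tnf was at 14.2 and 13.9 TPM in basal SPRET and at 2.04 and 2.71 TPM after 1 hour (-2.17, SE 0.13, adjusted p 1.8e-07). In both genes the 1-hour libraries lay below the basal ones. Nfkbiz fell in C57 from 12.4 and 12.9 TPM to 6.29 and 6.11 TPM. In C57, Tnf had a 1-hour change of -0.76, which was -0.60 and no longer called without replicate 2 at 1 hour. In SPRET, Tlr2, Enc1, Il17ra, Osgin1 and Plpp3 were among those called lower at 1 hour as well. Il17ra was not called without basal replicate 2 (-0.55) or 1-hour replicate 1 (-0.60), and Plpp3 not without 1-hour replicate 1 (-0.51). Tlr2 was at 231 and 259 TPM before and at 129 and 138 TPM after 1 hour there. Ccl3 was the exception at 1 hour in C57, where it rose from 97.5 and 88.0 TPM to 168 and 162 TPM (0.83, SE 0.09, adjusted p 9.0e-05). Gpr84 rose in SPRET, from 25.8 and 27.0 TPM to 43.6 and 43.3 TPM (0.70).

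At 6 hours the members called lower in both strains numbered 30, with 25 more in SPRET and 5 more in C57, and the most negative of the 30 were Cx3cr1, Fpr1, Tlr2, Pid1, Fpr2 and Slc25a37. Fpr1 fell from 57.7 and 57.1 TPM to 9.59 and 10.9 TPM at 6 hours and to 3.08 and 2.81 TPM at 24 hours in C57, a log2 change of -2.38 and then -3.89 (SE 0.12, adjusted p 5.3e-08 and 3.5e-10, limma). In SPRET it had reached 2.68 and 3.73 TPM at 6 hours and was at 2.73 and 3.11 TPM at 24 hours. Tlr2 and Pid1 were near their 24-hour level by 6 hours. Tlr2 was at 21.6 and 22.9 TPM at 6 hours and at 18.4 and 19.4 TPM at 24 hours in C57. Pid1 fell in SPRET from 370 and 392 TPM to 85.7 and 91.1 TPM and was at 97.5 and 97.6 TPM at 24 hours.

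Other members were called lower only at 24 hours. These were, in both strains, Cybb, Dbndd2, Gpr84, Marco, Pla2g7, Susd2 and Tmsb4x. Cybb was at 1490 and 1416 TPM in basal C57, 1025 and 1122 TPM at 6 hours and 597 and 638 TPM at 24 hours. The acute-phase members were late in C57. Saa3 was at 6607 and 6215 TPM under basal conditions, 6235 and 6405 TPM at 6 hours and 2659 and 2758 TPM at 24 hours (-1.24, SE 0.05, adjusted p 3.6e-09, limma). Slpi and Cfb likewise had 24-hour changes of -1.96 and -2.01 and 6-hour changes of -0.16 and -0.05. Between 6 and 24 hours, 44 members fell further in C57 and 24 in SPRET (6.59% and 4.53% of all genes), while E230016M11Rik, Gadd45a, Gdf15 and Tnf rose in C57 and Ccl3, Sla and Tnf in SPRET (4.68% and 1.91%). The SPRET count was 13 with a pseudocount of 5 TPM, and the rise of Sla was 0.56 and under the size without 24-hour replicate 2 or 6-hour replicate 1.

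**Figure D4:**
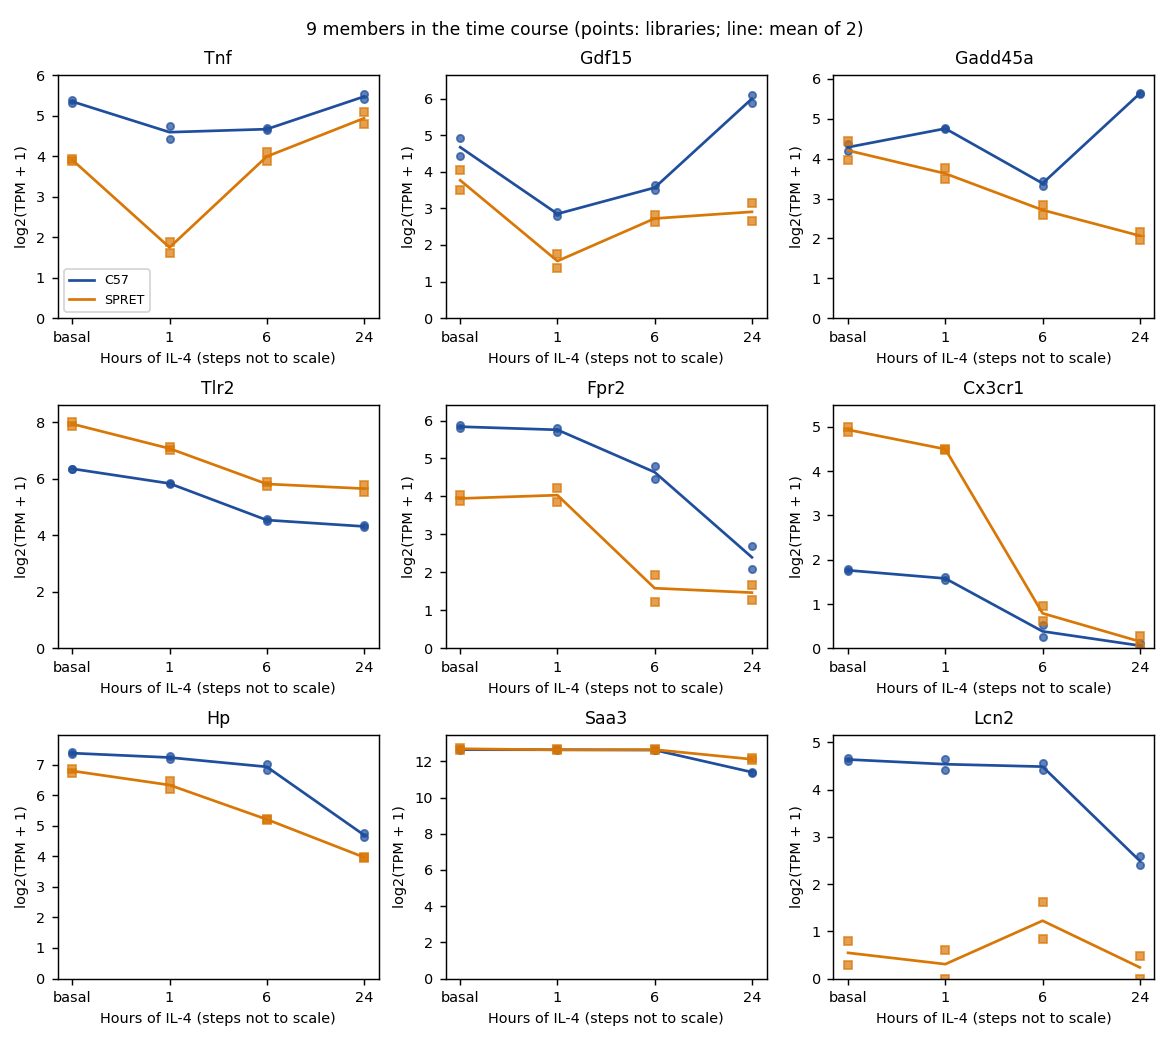
Level of 9 members in C57 and SPRET, untreated and at 3 times of IL-4 (1, 6 and 24 hours), as log2(TPM + 1), with a point per library and a line through the mean of 2 libraries. The hours are evenly spaced and not to scale. Tnf in both strains and Gdf15 in C57 drop at 1 hour and climb again, Fpr2, Tlr2 and Cx3cr1 drop by 6 hours, and Hp, Saa3 and Lcn2 in C57 drop after 6 hours.

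The difference between the strains was tested in the same fit. At 6 hours the response of 30 members differed between SPRET and C57 by the interaction test (adjusted p under 0.05, 11.1% of all genes), a comparison added after the data were seen, and 27 of them were lower in SPRET (5.29% of genes) and 3 higher (5.85%; Ifitm6, Nfkbiz and Tnf). Without single libraries the count was 21 to 26. The difference of Ifitm6 (1.23) was called only without C57 basal replicate 2 or SPRET basal replicate 1, and otherwise ranged from 0.84 to 1.36. That of Tnf (0.76) was not called without replicate 2 of C57 basal, C57 6 hours, SPRET basal or SPRET 6 hours (0.66 to 0.75). The count of 3 was 1 without SPRET basal replicate 2 or SPRET 6-hour replicate 2. Hp was at 170 and 160 TPM in basal C57 and at 129 and 113 TPM at 6 hours, but fell from 104 and 116 TPM to 36.4 and 35.5 TPM in SPRET (difference -1.13, SE 0.14, adjusted p 1.7e-04). By 24 hours it was at 23.6 and 26.3 TPM in C57 and at 14.5 and 14.8 TPM in SPRET, and the difference in response was -0.14 (SE 0.14, adjusted p 0.48).

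At 24 hours 44 members differed in response (28.9% of genes), 27 of them higher in SPRET (12.8%), that is with a smaller fall or a rise, and 17 lower (16.1%). Gadd45a had the largest of these differences. It rose in C57 from 17.4 and 19.7 TPM to 48.6 and 48.7 TPM and fell in SPRET from 20.8 and 14.6 TPM to 2.90 and 3.50 TPM (difference -3.49, SE 0.21, adjusted p 2.7e-07, limma). At 6 hours it had fallen in both, to 9.84 and 9.01 TPM in C57 and 4.98 and 6.18 TPM in SPRET. The C57 groups did not overlap at any pair of these times. The antisense neighbour E230016M11Rik differed by -2.32.

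Gdf15 differed in the same direction. After the early fall it reached 58.3 and 67.7 TPM at 24 hours in C57, above basal (1.32, SE 0.22, adjusted p 4.0e-04), while SPRET stayed at 5.33 and 7.86 TPM, a difference of -2.19. In the table of 5 strains Gdf15 was lower in C57, from 81.9, 116 and 82.1 TPM to 32.9, 25.4 and 34.7 TPM. The 2 sets of C57 libraries thus went in opposite directions at the same hour. Tnf and Ccl3 also departed from the table of strains. Tnf was at 41.7 and 45.5 TPM at 24 hours in C57, level with its basal 38.8 and 41.1 TPM, and in SPRET it rose from 14.2 and 13.9 TPM to 33.1 and 26.7 TPM (1.03, SE 0.13, adjusted p 4.7e-05). Ccl3 rose in SPRET from 53.2 and 51.1 TPM to 83.5 and 77.7 TPM (0.62), and without replicate 1 at 24 hours the change was 0.57 and under the size.

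F13a1 and Cx3cr1 fell further in SPRET of the time course, where they started far higher. F13a1 went from 77.6 and 87.6 TPM to 4.79 and 4.01 TPM in SPRET and from 5.20 and 4.47 TPM to 1.88 and 3.24 TPM in C57 (difference -3.21, SE 0.24, adjusted p 1.3e-06). Its C57 change of -0.74 was -0.46 and not called without replicate 1 at 24 hours. Cx3cr1 went from 28.4 and 30.7 TPM to 0.0170 and 0.219 TPM in SPRET and from 2.45 and 2.33 TPM to 0.0890 and 0 TPM in C57 (difference -3.08, SE 0.20, adjusted p 5.5e-07). On the log2(TPM + 1) scale a gene that starts low cannot fall far, and the basal levels of both genes in this experiment were more than 10 times higher in SPRET. In the libraries of the 5 strains F13a1 also fell further in SPRET (-4.89) than in C57 (-1.06). Cx3cr1 did not, with basal means of 3.40 TPM in SPRET and 4.98 TPM in C57 and changes of -2.07 and -2.35.

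Some of the members with a higher response in SPRET are described here as 2 kinds, sorted after the values were seen. Tnf and Ccl3, which rose in SPRET, are given above, and the rest were not sorted. Ifitm6, Ly6i, U90926 and Lcn2 were near 0 in SPRET from the start. Ly6i, a Ly6 surface antigen, was listed at 0 in both basal SPRET libraries and fell in C57 from 24.7 and 23.5 TPM to 2.29 and 3.64 TPM (difference 2.74). U90926 was listed at 0 in all SPRET libraries of the time course, and its difference of 2.08 is the C57 fall alone. Ifitm6 and Lcn2 differed by 2.90 and 1.84, and with a pseudocount of 0.1 TPM the Lcn2 difference was 1.11 and not called. The second kind was well expressed in SPRET. Cfb was at 34.0 and 37.7 TPM and then at 22.7 and 25.5 TPM in SPRET, against 281 and 279 and then 64.8 and 72.6 TPM in C57 (difference 1.46, SE 0.11, adjusted p 1.2e-06). Slpi fell in SPRET from 917 and 890 TPM to 570 and 547 TPM and in C57 from 1117 and 1073 TPM to 299 and 262 TPM (difference 1.27, SE 0.11, adjusted p 6.3e-06). Saa3, Marcksl1, Pilra, Fpr1 and Susd2 were called in the same direction, by 0.67, 1.08, 1.00, 1.08 and 1.49. In the libraries of the 5 strains Fpr1 and Marcksl1 went the other way, with changes of -3.57 and -1.98 in SPRET and -2.37 and -1.62 in C57. There Slpi was level in SPRET (0.04), and Susd2 had a basal mean of only 1.37 TPM in SPRET.

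The Egr2 experiment compared the falls in Egr2MKO with those in Egr2WT. Only Egr2MKO carried Cre, and no group had Cre without the deletion, so effects of Cre and of the deletion cannot be told apart. The deletion was seen in the RNA. Egr2 was at 21.3 and 23.6 TPM in basal Egr2WT and at 99.5 and 101 TPM after 24 hours, against 0.854 and 0.859 TPM and then 4.72 and 7.05 TPM in Egr2MKO, so a small part remained. Called lower at 24 hours were 62 of 77 members in Egr2WT and 65 in Egr2MKO (6.41% and 5.46% of 12079 genes), 58 of them in both. The counts were 37 and 41 at 6 hours (3.01% and 4.14%) and 4 and 5 at 1 hour (0.381% and 0.472%). Members called higher were 0, 1 and 0 at 1, 6 and 24 hours in Egr2WT (1.20%, 5.22% and 5.11% of genes) and 2, 1 and 0 in Egr2MKO (1.46%, 5.83% and 5.50%). Both 24-hour libraries lay below both basal ones for 74 members in Egr2WT and 76 in Egr2MKO, as for 39.1% and 26.2% of all genes. The median change at 24 hours was -1.29 in Egr2WT and -1.46 in Egr2MKO, with -0.05 and 0.05 over all genes. Together with the time course, 47 members were lower at 24 hours in all 4 groups, 24 at 6 hours, and at 1 hour Gdf15, Nfkbiz and Tnf. For calls shared by these groups, the share over all genes was not counted. Id3, an inhibitor of helix-loop-helix factors, was called lower in none of the 4. It rose at 6 hours in Egr2MKO, from 2.16 and 3.16 TPM to 13.9 and 8.06 TPM (1.68, SE 0.25, adjusted p 3.4e-04).

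Strong falls in Egr2MKO were found for the leading members. Fpr2 was at 26.4 and 31.6 TPM in basal Egr2WT and at 1.73 and 2.30 TPM after 24 hours, and went from 40.9 and 42.0 TPM to 2.74 and 1.28 TPM in Egr2MKO (changes -3.32 and -3.86, SE 0.24 each, difference -0.55, SE 0.34, adjusted p 0.36). Cx3cr1 fell from 31.8 and 32.4 TPM to 0.372 and 0.292 TPM in Egr2WT and from 22.6 and 23.7 TPM to 0.0730 and 0.293 TPM in Egr2MKO. Tlr2 and Pid1 had almost equal changes in the genotypes, of -1.98 and -2.03 for Tlr2 and of -1.01 and -1.01 for Pid1, with differences of -0.05 (SE 0.13) and 0.00 (SE 0.09). Hp fell by 2.94 on the log2 scale in Egr2WT and by 4.04 in Egr2MKO, but the Egr2MKO libraries were at 0.653 and 3.95 TPM, and their lower level of -1.04 against Egr2WT was -0.25 without replicate 1.

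**Figure D5:**
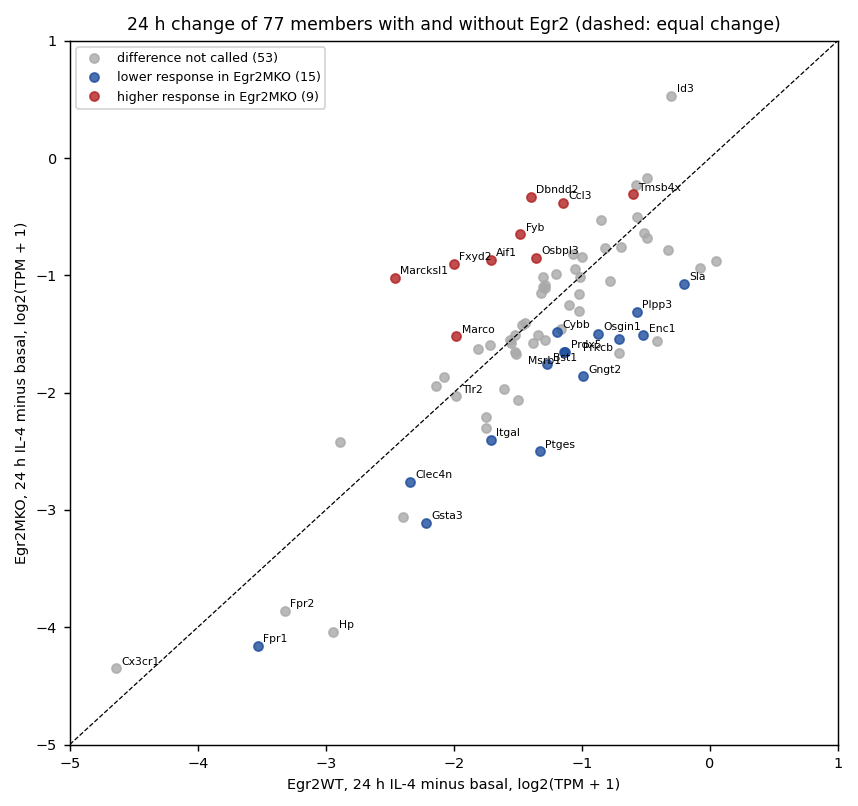
Change of the 77 tested members after 24 hours of IL-4 in Egr2WT (x axis) and in Egr2MKO (y axis), on the log2(TPM + 1) scale, with a dashed line where both are equal, red for the 9 members with a called higher and blue for the 15 with a called lower response in Egr2MKO. Most members lie in the lower left, near the line, and Marcksl1, Fxyd2 and Dbndd2 lie above it, while Ptges, Gsta3 and Sla lie below.

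The 24-hour response differed between the genotypes for 24 members (12.6% of all genes), of which 9 were higher in Egr2MKO (8.78%) and 15 lower (3.85%). The 9 are 11.7% of the members tested, near the share of all genes. The median difference was 0.1 over all genes and -0.13 over the members, and with median-ratio scaling the split was 6 higher and 15 lower. Marcksl1 led the first group. It fell from 84.0 and 72.4 TPM to 13.6 and 13.2 TPM in Egr2WT and from 113 and 119 TPM to 60.3 and 52.9 TPM in Egr2MKO (difference 1.43, SE 0.14, adjusted p 6.2e-05, limma). Fxyd2, a regulator of the sodium pump, fell to 15.5 and 13.9 TPM in Egr2WT and to 61.3 and 55.2 TPM in Egr2MKO (difference 1.10, SE 0.22, adjusted p 0.0057). With all libraries, Fxyd2 was already called higher in Egr2MKO before IL-4, so these end levels overstate the difference in response. Dbndd2 was at 6.49 and 6.89 TPM and then at 2.25 and 1.61 TPM in Egr2WT, whereas its change of -0.33 in Egr2MKO was not called (difference 1.07, adjusted p 0.0012). The adaptor Fyb and the macrophage gene Aif1 (IBA1) differed by 0.83 and 0.84, and Ccl3, Marco, Osbpl3 and Tmsb4x completed the group.

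In the second group the fall was greater in Egr2MKO. Ptges fell from 10.0 and 9.23 TPM to 3.56 and 2.88 TPM in Egr2WT and from 17.4 and 16.7 TPM to 2.47 and 1.91 TPM in Egr2MKO (difference -1.17, SE 0.20, adjusted p 0.0023). Gsta3, a glutathione transferase, reached 13.9 and 13.3 TPM in Egr2WT and 6.79 and 4.70 TPM in Egr2MKO (difference -0.88, SE 0.18, adjusted p 0.0058). The basal level of Gsta3 was not called different between the genotypes. Sla, an adaptor that dampens antigen receptor signalling, changed by -0.20 in Egr2WT and by -1.07 in Egr2MKO (difference -0.86, adjusted p 0.0039). Enc1 and Gngt2 differed by -0.99 and -0.87. The others were Bst1, Clec4n, Cybb, Fpr1, Itgal, Msrb1, Osgin1, Plpp3, Prdx5 and Prkcb. Without single libraries the 24 were 16 to 21, with 8 higher and 9 lower without Egr2WT basal replicate 1, and the Fpr1 difference of -0.62 was called only without Egr2WT 24-hour replicate 2 or Egr2MKO basal replicate 2. Of the 10 differences printed here with values, those of Marcksl1, Fxyd2, Dbndd2, Fyb, Ptges, Gsta3 and Sla were called whichever library was left out. That of Enc1 was called only without Egr2WT basal replicate 2 or Egr2WT 24-hour replicate 1 and ranged from -0.80 to -1.04 without the others. The difference of Gngt2 was called only without Egr2WT basal replicate 2, and otherwise ranged from -0.68 to -0.95. For Aif1 it was called only without Egr2MKO 24-hour replicate 2, and otherwise ranged from 0.56 to 0.89.

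Before IL-4, the level of 37 members differed between the genotypes (11.5% of genes), with 29 higher in Egr2MKO (5.95%) and 8 lower (5.56%). Without Egr2WT basal replicate 1 or 2 the count was 19 or 22, and without Egr2MKO basal replicate 1 or 2 it was 16 or 21. Of these, 14 to 20 were higher, and the 8 lower came to 4 without Egr2WT basal replicate 1 and to 2 without any of the others. Among the 29, Saa3 was at 903 and 975 TPM in Egr2WT and 2756 and 2774 TPM in Egr2MKO (1.56, SE 0.05, adjusted p 6.7e-09), and its change at 24 hours was similar, -1.05 and -0.95. Cfb was at 52.4 and 45.8 TPM in Egr2WT and 112 and 104 TPM in Egr2MKO (1.13, SE 0.11, adjusted p 2.9e-05). Lower with all libraries were Alox5ap, Bst1, Clec4n, Cx3cr1, F13a1, Gdf15, Prkcb and Susd2. After 24 hours the level of 49 members differed (37.4%), 29 higher (25.9%) and 20 lower (11.5%), and the median difference over all genes was 0.12. With median-ratio scaling the split was 24 and 23. Without single libraries the 49 were 39 to 42, and the 20 lower were 12 without Egr2WT 24-hour replicate 1 and 13 without Egr2MKO 24-hour replicate 2.

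Among 21 lists of genes by role, chosen with earlier results known, 22 members belong to a list and 56 to none. The counts below include these members and stand beside 8.78% of all genes lower and 7.06% higher in C57 at 24 hours, 8.80% and 6.21% in SPRET, 6.41% and 5.11% in Egr2WT, and 5.46% and 5.50% in Egr2MKO. Of 18 chemoattractant receptors tested, of which 4 are members, 9 were called lower and 3 higher in C57, 12 and 2 in SPRET, 10 and 4 in Egr2WT, and 7 and 5 in Egr2MKO. Of 22 Toll-like receptors and adaptors, 7 were lower and 1 higher in C57, 10 and 1 in SPRET, 5 and 1 in Egr2WT, and 6 and 2 in Egr2MKO. Of the acute-phase and granule proteins, 7 of 10 were lower in C57 and 3 of 10 in SPRET, and 10 of 14 in Egr2WT and 9 of 14 in Egr2MKO, and none higher in any of the 4. Of 20 scavenger and uptake receptors, 11 were lower and 3 higher in C57 and 9 and 3 in SPRET, and of 21 tested, 8 and 4 in Egr2WT and 7 and 3 in Egr2MKO. Cytokines and chemokines had 6 lower and 9 higher of 25 in C57 and 5 and 12 in SPRET, and 5 and 6 of 23 in Egr2WT and 8 and 8 in Egr2MKO.

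Interferon-stimulated genes held no member. Of 39 tested, 18 were lower and 1 higher in C57, and 2 lower and 2 higher in SPRET. Of 40 tested, 27 were lower and 1 higher in Egr2WT, and 8 lower and 0 higher in Egr2MKO. The NADPH oxidase list, which holds Cybb, had 3 lower and 0 higher of 9 in each of the 4 groups. NF-kB subunits and inhibitors had 2 lower and 1 higher of 13 in C57, 3 and 2 in SPRET, 5 and 1 in Egr2WT, and 3 and 2 in Egr2MKO. The complement list had 4 and 1 of 13 in C57 and 5 and 2 in SPRET, and 3 and 1 of 14 in Egr2WT and 2 and 5 in Egr2MKO. In this order of groups, Fc receptors had 6 and 2, 7 and 1, 4 and 2, and 3 and 3 of 14. Integrins and selectin ligands had 2 and 3, then 4 and 2 of 16, and 3 and 3, then 4 and 4 of 17. Coagulation and fibrinolysis had 4 and 4, then 3 and 7 of 14, and 2 and 5, then 4 and 3 of 13. Cholesterol and lipid handling had 7 and 4, 2 and 8, 2 and 4, and 5 and 2 of 20. Lists without a member are not given, other than the interferon-stimulated and IL-4-induced genes. The 21 IL-4-induced marker genes tested, which hold no member, had 19 higher in C57, 18 in SPRET, 19 in Egr2WT and 17 in Egr2MKO, against 0, 2, 0 and 1 lower.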

How the data were processed

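PolyA RNA of BMDMs was sequenced as dUTP libraries with 75-base single-end reads. The deposited TPM values of 61 libraries in 3 tables were used. According to the methods, the authors aligned reads to each strain's own genome (STAR), converted positions to mm10 coordinates (MMARGE) and had HOMER count exons and scale each library to TPM. Reads that align to several places and strand are not described further in the sources used here. The authors' DESeq2 columns hold their own comparisons and were not used, nor were the human and F1 tables. 1 member counts in all totals but is not reported here by name.

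Values were taken as log2(TPM + 1). For the time course and the Egr2 table, limma 3.58.1 (R 4.3.3) fitted group means over the genes with 1 TPM or more in 2 libraries or more, with a mean-variance trend, and Benjamini-Hochberg adjustment ran over all genes of the fit. Calls against basal needed an adjusted p under 0.05 and 1.5-fold, and differences between strains or genotypes the adjusted p alone, two-sided. Fold changes of low genes are understated on this scale. TPM carries no counting interval. The fit was tested on simulated data. Figures were drawn with matplotlib 3.10.9.

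The members and gene lists were chosen with earlier results of these data known. Genes were named as follows: the 12 most negative mean changes among members that passed in all 5 strains, up to 6 most negative at 1 and at 6 hours among those called in both time course strains, the 4 widest ranges over strains, up to 5 differences per direction between genotypes and between strains at 24 hours, up to 4 members a role list, 3 genes on each side of the threshold, Egr2, and the remaining members by group. Other values beside gene names (such as Cfb, Slpi and Hp in the comparison of strains) were chosen after they were seen. Alternatives were a pseudocount of 0.1 or 5 TPM, no filter, median-ratio scaling, a replicate block and leaving out each library.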

Additional observations from a re-analysis of the deposited data

Results flagged for a closer look

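The responses listed here differed between groups by the interaction test in limma (adjusted p under 0.05). Between SPRET and C57 at 24 hours, the difference in log2 change was -3.49 for Gadd45a, -3.21 for F13a1, -3.08 for Cx3cr1, -2.32 for E230016M11Rik and -2.19 for Gdf15. In the other direction it was 2.90 for Ifitm6, 2.74 for Ly6i, 2.08 for U90926, 1.84 for Lcn2 and 1.49 for Susd2. Each of these 10 was called whichever library was left out. Gadd45a and E230016M11Rik overlap on opposite strands, and Ifitm6, Ly6i, U90926 and Lcn2 were near or at 0 TPM in SPRET. In the libraries of the 5 strains the response of Cx3cr1 (-2.07 in SPRET and -2.35 in C57) was not lower in SPRET. Nor was that of Gdf15 (-1.28 and -1.55).

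Between Egr2MKO and Egr2WT at 24 hours, the difference was -1.17 for Ptges, -0.99 for Enc1, -0.88 for Gsta3, -0.87 for Gngt2 and -0.86 for Sla, and 1.43 for Marcksl1, 1.10 for Fxyd2, 1.07 for Dbndd2, 0.84 for Aif1 and 0.83 for Fyb. Those of Enc1, Gngt2 and Aif1 were lost without most single libraries. Groups of 2 or 3 libraries were not examined for a library that stands apart.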

How the results depend on the processing

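The number of members was 78, and it was 41 with a pseudocount of 5 TPM, 20 at 2-fold, 27 when all 5 strains had to pass, 47 with a basal mean of at least 10 TPM, and 74 to 83 without single replicates. Median-ratio scaling gave 101, of which 68 were shared with the 78. The count of members lower at 24 than at 6 hours in SPRET was 24, and 13 with a pseudocount of 5 TPM. The members with a different basal level in Egr2MKO numbered 37, and 16 to 22 without single libraries. The SPRET minus C57 response of Mturn at 24 hours was 0.56, and with a pseudocount of 5 TPM it was -0.15. The cause of these shifts was not tested. Without single libraries, the members called lower at 24 hours numbered 61 to 64 in C57, 58 to 61 in SPRET, 61 to 64 in Egr2WT and 62 to 65 in Egr2MKO, and those with a different response 36 to 40 between strains and 16 to 21 between genotypes at 24 hours. Over the single members and libraries left out, 2858 calls were kept and 390 lost. A lone library was then assumed to vary like the other groups.

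For libraries with the same replicate number, the mean correlation of their deviations was 0.013, 0.03 and -0.0046 in the 3 tables. The highest single values were 0.33, 0.27 and 0.057. These means ran over all pairs of groups, also of different strains or genotypes. They cannot tell whether the numbers pair basal and IL-4 samples of the same strain. With a replicate block the members with a different response at 24 hours numbered 24 between genotypes and 43 between strains (44 without the block), those with a different response at 6 hours 33 (30), and those with a different level between genotypes 36 before IL-4 (37) and 48 at 24 hours (49). The block moved no count past 1.5 times.

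With 2 libraries a group and no read counts, small differences in genes near 1 TPM cannot be resolved, and TPM from separate experiments were set side by side as descriptions only.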
